A study of Homo sapiens with 6 samples.

Results

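The transcripts described here encode the core of canonical WNT signalling: CTNNB1 (beta-catenin), its nuclear partner TCF7L2, the destruction complex components APC, AXIN1, AXIN2, GSK3B and CSNK1A1, and the co-receptor LRP6. These 8 genes were chosen by name. A cluster, meaning a run of overlapping crosslinked reads, was counted for a gene when it shared at least 1 nt on the same strand with an exon of any of the gene's GENCODE release 44 transcripts. Of 244645 clusters in 6 libraries, 447 lay on exons of these genes, and 7 of the 8 genes had at least 1 cluster.

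Beta-catenin that is not held in adherens junctions is captured by a scaffold of APC and axin, phosphorylated by casein kinase 1 alpha (CSNK1A1) and glycogen synthase kinase 3 beta (GSK3B), and degraded. WNT ligands bound to frizzled receptors and LRP6 halt this step, and beta-catenin then enters the nucleus and activates transcription with TCF factors such as TCF7L2. The pathway drives renewal of the colon epithelium, and most colorectal cancers carry a mutation in it. HCT116, the line used here, carries an activating mutation in CTNNB1 and no mutation of APC.

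The cells were HCT116 with the genotype Tet-OsTIR1-PURO, a human colorectal carcinoma line that conditionally expresses the plant TIR1 receptor, and all 6 libraries share this genotype and labeling with 100 µM 4-thiouridine for 15 h. Sequencing turns a crosslinked 4-thiouridine into C, and the resulting T-to-C conversions mark where the protein touched the RNA. IGF2BP3, an oncofetal RNA-binding protein, was precipitated in 5 libraries, which differed in RNase, given as U/µL in-lysate/on-beads: RNase I 0.05/0.05, 0.1/0.025 and 0.05/0.025, and RNase T1 1/1 and 0.25/0.25. RNase I cuts after any base and RNase T1 after G. RNA was recovered from the gel by electroelution in RNase I 0.05/0.05 and RNase T1 1/1 and from crushed gel in the others. The sixth library was an IgG control with RNase I 0.1/0.025. The paper reports that its anti-IGF2BP3 antibody partly recognizes the paralog IGF2BP2. Some of the clusters described here may therefore come from IGF2BP2, and the libraries cannot separate the paralogs. Each condition is 1 library from 1 line, so no comparison of conditions has a replicate. No test was run, since the enzymes also differ in dose and a grouping by enzyme would mix doses and extractions, and all intervals below are 95% intervals of counting error only. No RNA level was measured in these files, so more binding and more transcript cannot be told apart.

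The IGF2BP3 libraries held 182448 to 2362467 cluster reads in 13568 to 90999 clusters, and the IgG library 324 reads in 25 clusters. None of the IgG clusters lay on the 8 genes, but that library is too shallow to set a background level for them. Epithelial markers were present on the whole, EPCAM in all 5 IGF2BP3 libraries and KRT8, KRT18, CDH1 and CLDN4 in 4, while of the colon markers CDX2 had a cluster in 1 library and CDX1, VIL1 and LGALS4 in none; all 10 leukocyte, endothelial, fibroblast and hepatocyte markers had none.

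The stretches below are shown because they are the part of a site that most libraries covered. For the 7 genes with clusters, clusters of different libraries that overlapped were merged into sites, and from the sites with the most libraries and the highest summed read density the run covered by the greatest number of libraries was taken, cut to its central 30 nt at most. Sequences are 5′ to 3′ on the transcript strand, from GRCh38, written with T for U. Capitals mark a match to the tetramer CATT, to CAGT, to CATA, to TTAC or to TATC, searched on the transcript strand with overlaps allowed.
TCF7L2, chr10:113165880-113165909, plus strand, coding, at -92 to -63 nt from the end of the stop codon, 5 libraries: gcacagccgtcgacttcttccTTACATTcc
TCF7L2, chr10:113167461-113167490, plus strand, 3′UTR, 1489 to 1518 nt after the stop codon, 5 libraries: tttctctggtttattaaaatgctaactata
TCF7L2, chr10:113151020-113151049, plus strand, coding, exon 9, 5 libraries: ccacatCATAcgctacacacgacgggCATT
TCF7L2, chr10:113166392-113166421, plus strand, 3′UTR, 420 to 449 nt after the stop codon, 5 libraries: accaatCATTTTACatctggtttttaaacc
CSNK1A1, chr5:149494665-149494694, minus strand, 3′UTR, 2159 to 2188 nt after the stop codon, 5 libraries: tgatcttctagctacCATTCATTttcttca
CSNK1A1, chr5:149496412-149496428, minus strand, 3′UTR, 425 to 441 nt after the stop codon, 5 libraries: gctcacaattgtgCATT
CSNK1A1, chr5:149496175-149496204, minus strand, 3′UTR, 649 to 678 nt after the stop codon, 5 libraries: tccttaggactctgCATTaactctataatg
GSK3B, chr3:119824407-119824429, minus strand, 3′UTR, 2359 to 2381 nt after the stop codon, 5 libraries: gttgccccccacaactggggtaa
GSK3B, chr3:119822406-119822435, minus strand, 3′UTR, 4353 to 4382 nt after the stop codon, 5 libraries: ccttaactaTATCtgtctacaggcagatac
CTNNB1, chr3:41240219-41240229, plus strand, 3′UTR, 877 to 887 nt after the stop codon, 5 libraries: atatgcttaaa
CTNNB1, chr3:41239723-41239752, plus strand, 3′UTR, 381 to 410 nt after the stop codon, the 3 RNase I libraries: gctggTATCtcagaaagtgcctgacacact
APC, chr5:112842029-112842049, plus strand, coding, exon 16, RNase I 0.05/0.05 and both RNase T1 libraries: atcacCATTtcatcTTACacc
LRP6, chr12:12117453-12117482, minus strand, 3′UTR, 3644 to 3673 nt after the stop codon, all but RNase T1 1/1: atattggtTATCATTACgTATCtaacaaga
AXIN1, chr16:287480-287509, minus strand, 3′UTR, 613 to 642 nt after the stop codon, RNase I 0.05/0.05 only: cacttgtacaattaatTATCttttcaaagg
CATT stands in most of these stretches and CAGT in none. Most of the stretches lie in clusters of both enzymes, because coverage by many libraries was the rule of choice. CAGT stood in 13.2% and 14.3% of the RNase T1 member clusters, against 28.9% to 35.3% of the RNase I ones. No share for stretches of like length from other clusters is given here. The lack of CAGT can therefore not be read as a trait of these sites. A match is a description of the letters and not of a contact.

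Binding was spread unevenly over the pathway. Per length of the canonical mRNA, TCF7L2 held the most cluster reads in every IGF2BP3 library, followed by CSNK1A1 and GSK3B, then CTNNB1, while APC and LRP6 held few and the axins next to none. TCF7L2 had 211 CPM per kb (cluster reads per 1000000 cluster reads of the library, per kb of mRNA) in RNase I 0.05/0.05, 211 in RNase I 0.1/0.025, 198 in RNase I 0.05/0.025, 172 in RNase T1 1/1 and 336 in RNase T1 0.25/0.25. Among protein-coding genes with a cluster it stood at percentile 94.6 to 97.6 of the library.

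CSNK1A1, the priming kinase, had 97.8, 107, 112, 80.3 and 147 CPM per kb in the same order of libraries, at percentile 85.6 to 92.9. GSK3B, the kinase that completes the phosphorylation, had 57.7, 45.5, 40.1, 69.3 and 34.0 CPM per kb, at percentile 54.9 to 88.6. The interval of TCF7L2 lay above both kinases in each library, and that of CSNK1A1 above that of GSK3B in 4; in RNase T1 1/1 the kinases overlapped (73.4 to 87.7 and 64.0 to 75.0).

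CTNNB1 had 40.9 CPM per kb in RNase I 0.05/0.05 (36.8 to 45.4), 14.6 in RNase I 0.1/0.025 (10.6 to 19.7), 19.1 in RNase I 0.05/0.025 (14.1 to 25.5), 19.8 in RNase T1 1/1 (15.8 to 24.5) and 7.49 in RNase T1 0.25/0.25 (2.43 to 17.5). The value of RNase I 0.05/0.05 lay above the other 4, whose intervals all overlapped each other. Its percentile among genes with a cluster ran from 14.02 in RNase T1 0.25/0.25 to 81.2 in RNase I 0.05/0.05. The median gene with a cluster had 9.74 and 28.7 CPM per kb in RNase I 0.05/0.05 and RNase T1 0.25/0.25.

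LRP6, which transmits the ligand signal across the membrane, had 5.33, 3.40, 4.36, 6.996 and 2.67 CPM per kb, and APC, the scaffold, 4.59, 2.44, 0.696, 8.07 and 3.07. Their intervals overlapped in 4 libraries, and in RNase I 0.05/0.025 that of APC (0.226 to 1.63) lay below that of LRP6 (2.94 to 6.23). AXIN1 had a single cluster of 4 reads with 3 conversion events, 1.69 CPM, in RNase I 0.05/0.05, and AXIN2, a scaffold that is itself induced by beta-catenin, had none in any library. The smallest cluster listed in the IGF2BP3 libraries held 2 reads, so reads on AXIN2 that formed no cluster would not be seen, and its absence here is a statement about clusters at this depth. With the union of all annotated exons as the length, CTNNB1 fell below LRP6 and APC in both RNase T1 libraries, at 6.17 against 6.92 and 6.34 in RNase T1 1/1 and 2.33 against 2.64 and 2.41 in RNase T1 0.25/0.25, and LRP6 stood above APC there, where the mRNA length put APC above LRP6.

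**Figure D1:**
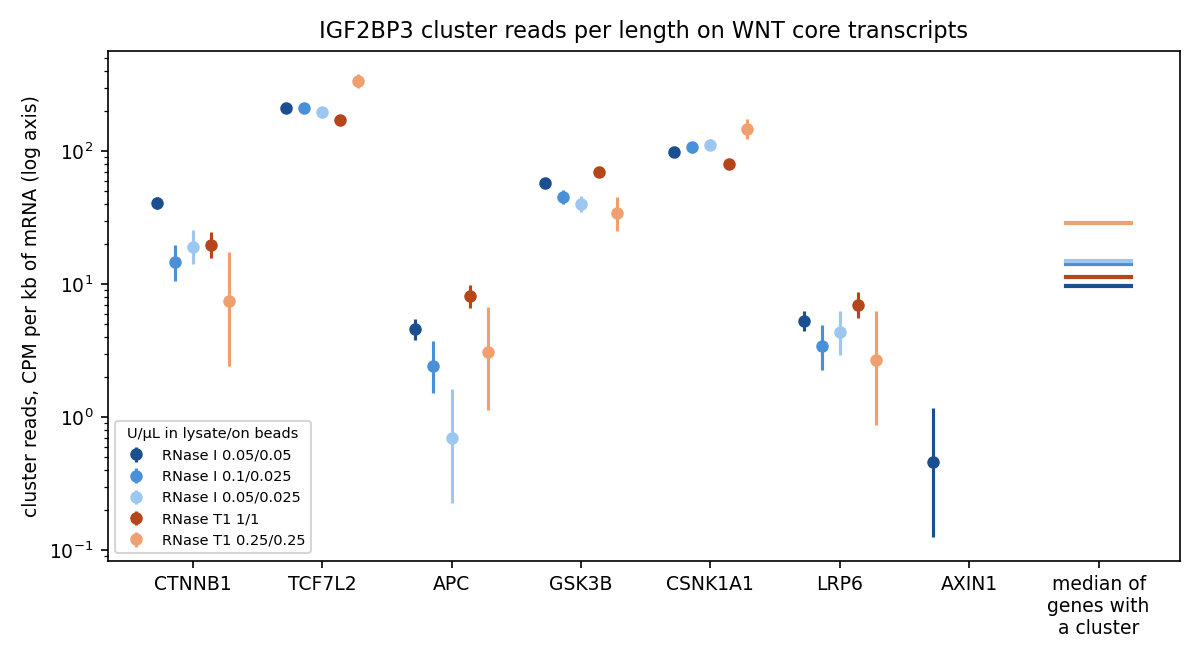
Cluster reads of each gene in CPM per kb of its canonical mRNA on a log axis, with 1 point per IGF2BP3 library and bars for 95% Poisson intervals of counting error. Horizontal lines on the right give the median over protein-coding genes with a cluster; TCF7L2 and CSNK1A1 lie above them in every library, APC and LRP6 below, and AXIN2 had no cluster to draw.

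A target was called here when 1 or more clusters passed both 10 CPM and 0.5 T-to-C events for each read. This is a reading of the rule in the methods, which do not state the denominator of CPM. Cluster reads were taken as that denominator, and conversion was counted as events divided by reads. Of all protein-coding genes, 4389 were called in RNase I 0.05/0.05 and 3939 in RNase T1 1/1. Both counts are higher than the paper reports for the same enzymes, so the calls below are not its calls. Among the 8 genes, 7 had a cluster in RNase I 0.05/0.05 and 6 in each of the other IGF2BP3 libraries. Of those with a cluster, 4 of 7 were called in RNase I 0.05/0.05 (against 50.1% of all protein-coding genes with a cluster in that library). The calls were 5 of 6 in RNase I 0.1/0.025 (66.5%), 5 of 6 in RNase I 0.05/0.025 (72.6%), 6 of 6 in RNase T1 1/1 (52.2%) and 6 of 6 in RNase T1 0.25/0.25 (82%). CTNNB1, TCF7L2, GSK3B and CSNK1A1 were called in all 5 libraries, as were 21.2% of the genes with a cluster in any. APC was called in both RNase T1 libraries and in no RNase I library, LRP6 in all but RNase I 0.05/0.05, and AXIN1 and AXIN2 in none. The split of APC by enzyme depends on the threshold. With exonic cluster reads as the denominator, or with at least 20 reads per cluster, APC was also called in RNase I 0.05/0.05, where 5 members were then called. The CPM threshold equals 23.6 reads in RNase I 0.05/0.05 and 1.82 reads in RNase T1 0.25/0.25, so the call asks for less evidence in the shallower library. In RNase I 0.05/0.05, for example, the most read APC cluster had 22 reads, 9.31 CPM and 0.591 events per read, and the most read LRP6 cluster 19 reads, 8.04 CPM and 0.316 events per read, while in RNase T1 0.25/0.25 the calls of CTNNB1, APC and LRP6 rest on 1 cluster each, of 5, 6 and 5 reads.

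The merged sites numbered 152, of which 79 were seen in 1 library and 17 in all 5. TCF7L2 held 7 of the 17, CSNK1A1 6, GSK3B 3 and CTNNB1 1. APC and LRP6 had 20 and 18 sites, none of them in all 5 libraries. Most clusters of the shallower libraries were met again in the deepest, since 67 of the 68 clusters of RNase I 0.05/0.025 overlapped a cluster of RNase I 0.05/0.05, as did all 35 of RNase T1 0.25/0.25 and 89 of the 114 of RNase T1 1/1. The same share over all clusters of the libraries is not given here, so this overlap cannot be read as a trait of these genes. Clusters were longer with RNase I, with a median of 59, 52 and 54 nt on these genes against 34 and 38 nt with RNase T1, as in the libraries as a whole (52 to 54 and 33 to 37 nt). With RNase T1, 107 of 114 and 29 of 35 clusters ended in G, and with RNase I 20 of 149, 7 of 81 and 8 of 68. Among all clusters of the same libraries, 94.66% and 91.72% ended in G after RNase T1, against 12.95%, 12.24% and 11.84% after RNase I. The split by enzyme is thus that of the libraries as a whole and not a trait of these genes.

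**Figure D2:**
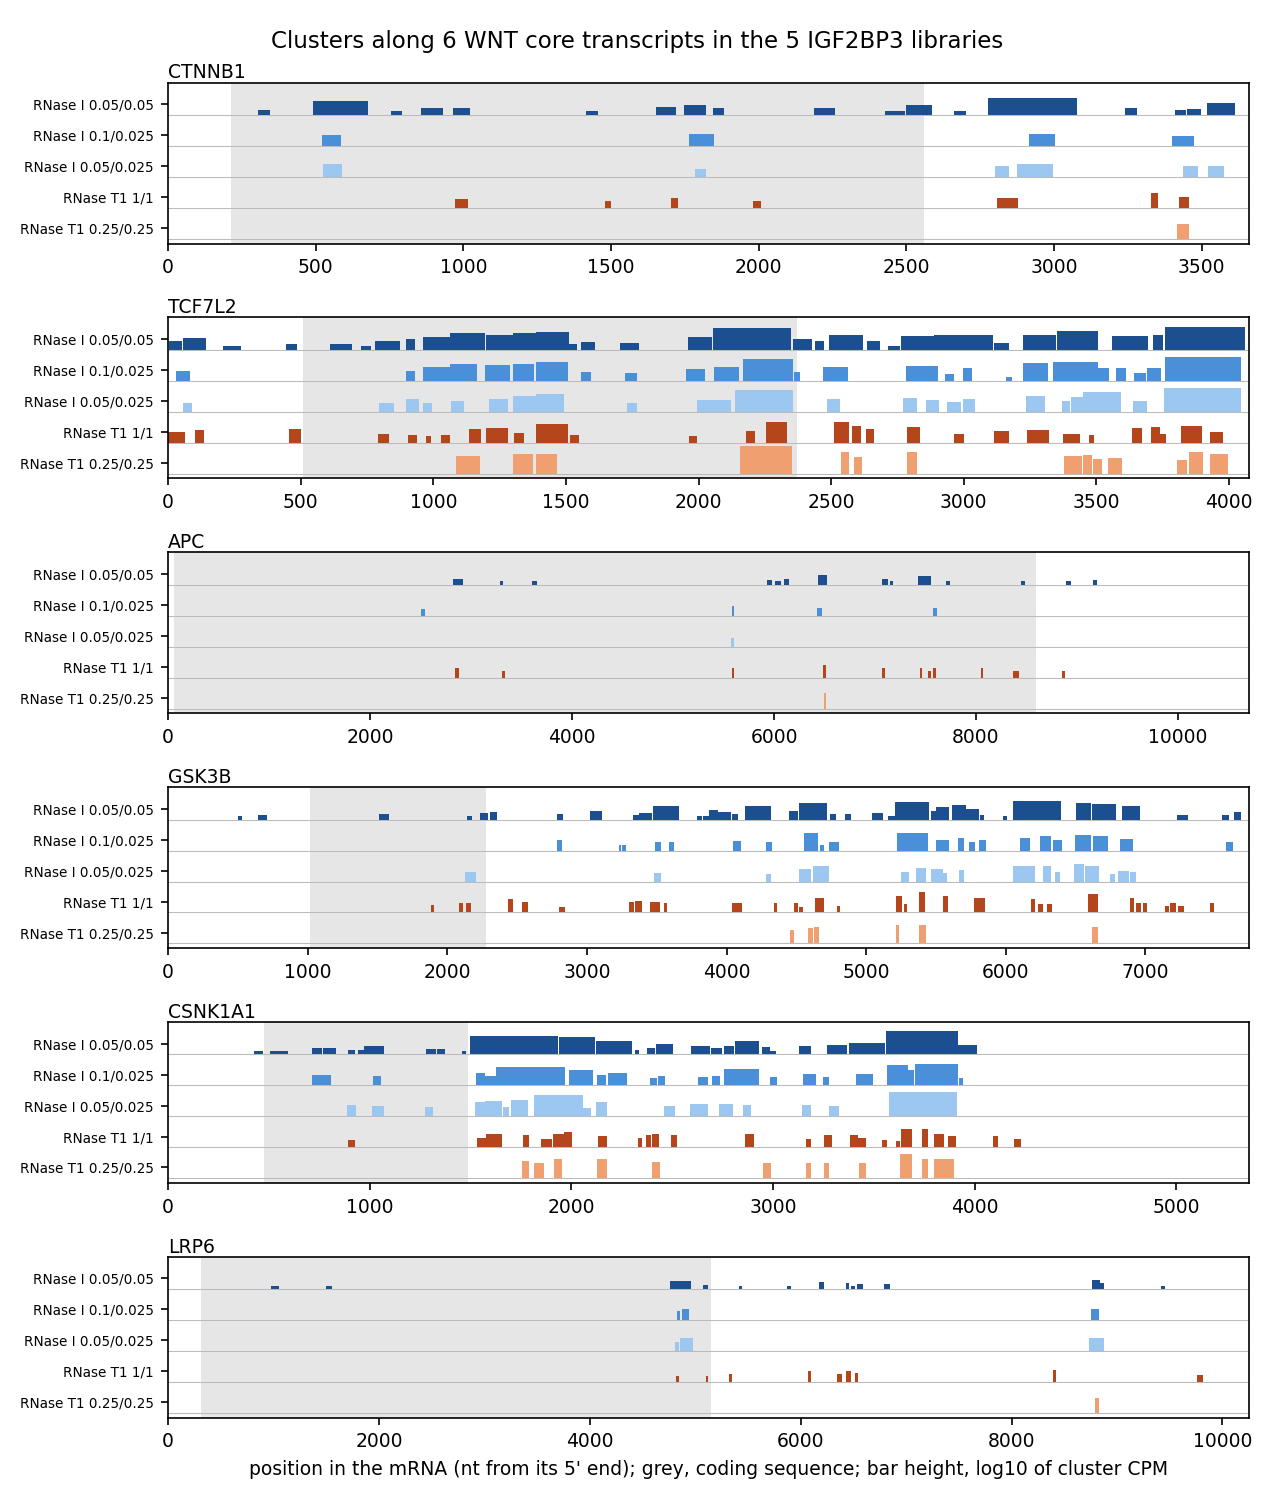
Clusters of 6 genes along the canonical mRNA, position in nt from its 5′ end, with the coding sequence in grey and 1 row per IGF2BP3 library. Bar height follows the log10 of the cluster's CPM, with a least height for weak clusters. Bars fill the coding sequence and 3′UTR of TCF7L2, lie mostly in the 3′UTR of GSK3B and CSNK1A1, and stay in the last exon of APC. For CSNK1A1 in RNase I 0.05/0.05, 19 of 31 clusters were in the 3′UTR and 10 in the coding sequence.

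The genes differed in which part of the mRNA was bound. On the canonical transcripts, 71.4% to 76.4% of all member reads lay in the 3′UTR. If a cluster that any annotated isoform places in a 3′UTR is counted there, the share is 83.7% (82.7 to 84.7, Wilson) in RNase I 0.05/0.05, 86.2% in RNase I 0.1/0.025, 89.1% in RNase I 0.05/0.025, 87.7% in RNase T1 1/1 and 90.8% in RNase T1 0.25/0.25, because other annotated isoforms of these genes place canonical coding sequence in a 3′UTR. The shares of single genes below use the canonical transcript.

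TCF7L2, on chromosome 10, had clusters in coding sequence and 3′UTR in every library and in the 5′UTR in all but RNase T1 0.25/0.25, with 33, 25, 23, 29 and 14 clusters in the 5 libraries. Its coding sequence held 46.0%, 46.8%, 41.1%, 39.4% and 50.0% of its reads, in RNase I 0.05/0.05, 0.1/0.025 and 0.05/0.025 and RNase T1 1/1 and 0.25/0.25. Per length, the 3′UTR held 1.21 times the reads of the coding sequence in RNase I 0.05/0.05 (1.104 to 1.32) and 1.09 times in RNase T1 0.25/0.25 (0.844 to 1.41), with 1.22, 1.54 and 1.48 times in the other 3 libraries. On the canonical transcript, the read density of its coding sequence thus came near that of its 3′UTR. This depends on the isoform. With the 3′UTR of any annotated isoform counted first, its coding share was 27.0%, 26.1%, 20.2%, 22.0% and 16.8% in the same order of libraries.

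Within TCF7L2, exon 9 carried a site in all 5 libraries, with 133, 49, 39, 76 and 16 reads in the order above. Another site of all 5 libraries lay in the last coding stretch, ending before the stop codon of the canonical transcript, with 145, 164, 155, 118 and 455 CPM. A further one lay in the distal 3′UTR, 854 to 1689 nt after the stop codon, with 318, 368 and 383 CPM in the RNase I libraries, 147 in RNase T1 1/1 and 417 in RNase T1 0.25/0.25. The strongest RNase I cluster of the gene belongs to it, with 407 reads (172 CPM, 288 events) in RNase I 0.05/0.05, 152 reads in RNase I 0.1/0.025 and 150 in RNase I 0.05/0.025.

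The first part of the TCF7L2 3′UTR held more reads with RNase T1. The site 69 to 248 nt after the stop codon had 37.2, 23.6 and 19.4 CPM in the RNase I libraries and 154 and 153 CPM in the RNase T1 libraries, both above all 3 RNase I values. In RNase T1 1/1 its main cluster was the gene's strongest, with 131 reads but only 42 conversion events (0.321 per read), so that it did not count toward the target call. With the 3′UTR cut into 3 equal parts, the part next to the stop codon held 18.9%, 12.5% and 12.5% of the 3′UTR reads with RNase I and 55.3% and 39.2% with RNase T1. These sites were picked out after their values were seen, and the values are given as a description.

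**Figure D3:**
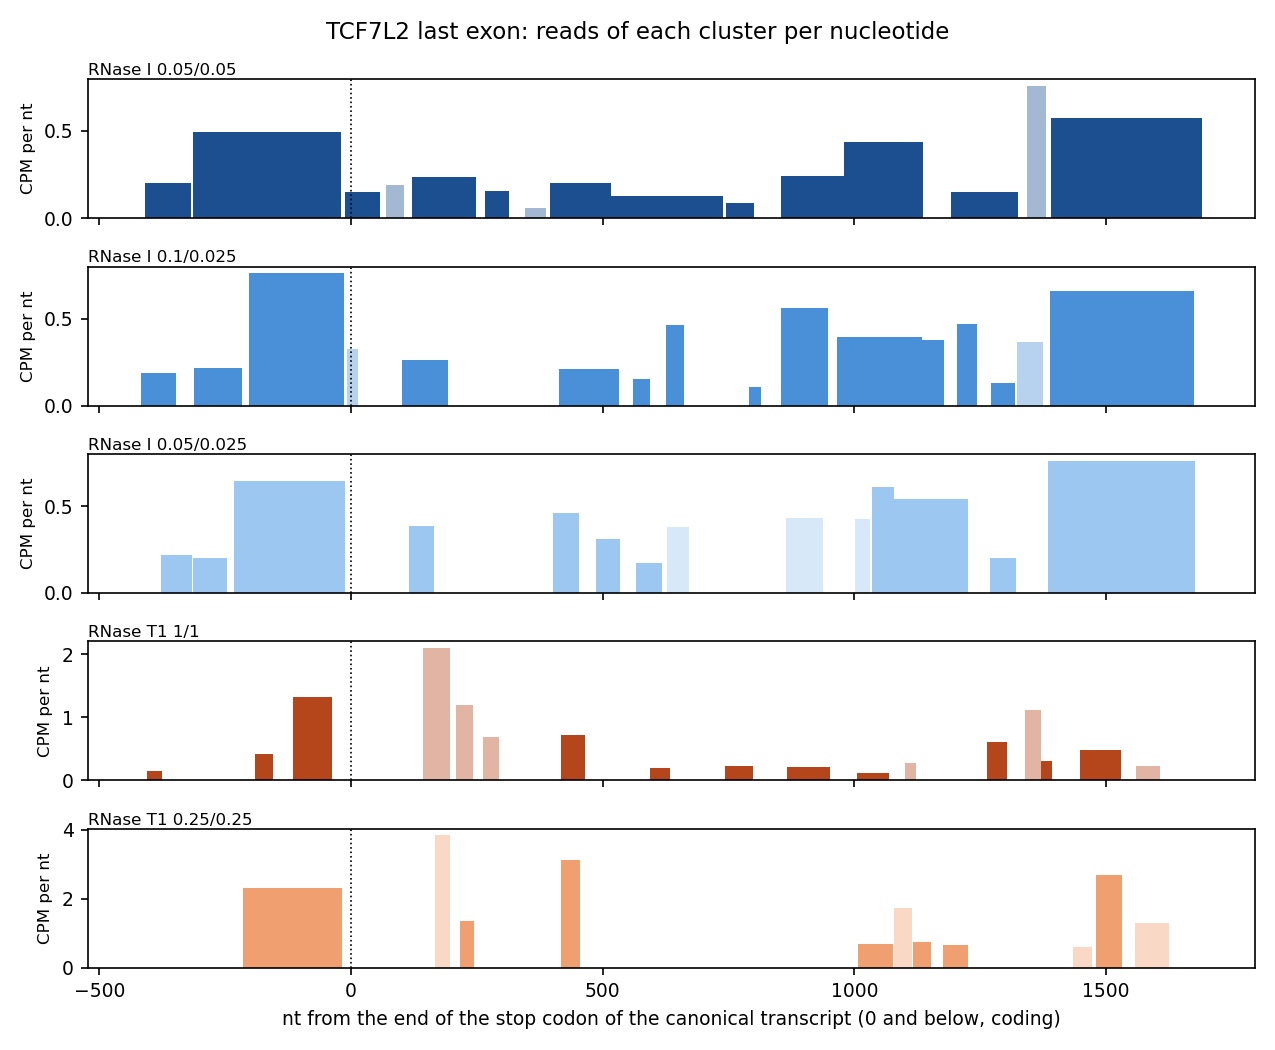
Clusters in the last exon of TCF7L2 by library, as CPM per nt of the cluster (each panel has its own scale), against the distance in nt from the end of the stop codon, with coding positions left of the dotted line. Pale bars are clusters with 0.5 or fewer conversion events per read; RNase T1 1/1 shows its tallest bars just before and 142 to 195 nt after the stop codon, the latter pale, and the RNase I libraries a broad cluster at the far end of the 3′UTR.

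GSK3B, on chromosome 3, has a 3′UTR of 5467 nt against a coding sequence of 1263 nt, and 95.8% to 100% of its reads were in the 3′UTR. Per length, the 3′UTR held 17.0 times the reads of the coding sequence in RNase I 0.05/0.05 (10.1 to 31.2), where 14 reads were coding. The ratio was lower in RNase I 0.05/0.025, at 7.78 (3.51 to 21.4, on 6 coding reads). In RNase T1 1/1 it was 5.29 (3.57 to 8.16, on 26 coding reads). RNase I 0.1/0.025 and RNase T1 0.25/0.25 had no coding reads. In RNase I 0.05/0.05, 33 of the 37 clusters lay in the 3′UTR, and 55.2% of it was covered. Clusters of RNase I 0.1/0.025 and 0.05/0.025 and RNase T1 1/1 and 0.25/0.25 covered 27.7%, 20.9%, 20.8% and 3.71%. Its 3 sites of all 5 libraries lay 2244 to 2456, 2931 to 3176 and 4212 to 4510 nt after the stop codon. The middle of these had 54.2, 52.3 and 28.3 CPM with RNase I and 151 and 126 CPM with RNase T1, and its cluster of 125 reads in RNase T1 1/1 had 42 events (0.336 per read).

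CSNK1A1, on chromosome 5, had 93.5% to 100% of its reads in the 3′UTR. A cluster of 415 reads (176 CPM, 262 events) in RNase I 0.05/0.05, 2072 to 2427 nt after the stop codon, was the most read of all clusters on these genes. The site around it had 190, 251, 240, 188 and 428 CPM, and the site 7 to 625 nt after the stop codon 173, 179, 228, 100 and 153 CPM. The distal of 3 equal parts of the 3871 nt 3′UTR held no reads in 4 libraries and 4.67% of the 3′UTR reads in RNase T1 1/1. The long non-coding RNA ENSG00000230551 (chr5:149494314-149504670, same strand) shares exon sequence with this 3′UTR, and 88 of the 107 CSNK1A1 clusters, with 2599 of 2744 reads, lay on exons of both. Its 3′ end falls 2539 nt after the CSNK1A1 stop codon. Reads of the 2 transcripts cannot be told apart, so nearly all values of CSNK1A1 are values of the pair, and without the shared clusters 80, 15, 21, 29 and 0 reads remained and the target call was lost in RNase I 0.05/0.05 and RNase T1 0.25/0.25.

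CTNNB1, on chromosome 3, had 354 reads in 18 clusters in RNase I 0.05/0.05, 43 in 4 in RNase I 0.1/0.025, 47 in 6 in RNase I 0.05/0.025, 84 in 7 in RNase T1 1/1 and 5 in 1 in RNase T1 0.25/0.25. Its 3′UTR of 1101 nt held 57.1%, 46.5%, 68.1%, 64.3% and 100% of them. The strongest cluster in RNase I 0.05/0.05 lay 218 to 517 nt after the stop codon with 114 reads (48.3 CPM) and 81 events. That site had 16.2 and 26.8 CPM in the other RNase I libraries, 8.64 in RNase T1 1/1 and no cluster in RNase T1 0.25/0.25.

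The only CTNNB1 site of all 5 libraries, 840 to 936 nt after the stop codon, had 7.20, 8.71, 10.4, 11.2 and 27.4 CPM on 17, 7, 7, 13 and 5 reads. In RNase T1 1/1 the most read cluster lay 770 to 793 nt after the stop codon, with 31 reads and 8 events (0.258 per read), a stretch with no cluster in any other library. In the coding sequence, exon 4 had 49, 10 and 11 reads in the RNase I libraries and none with RNase T1, and exon 10 had 33, 13 and 4 reads in the RNase I libraries and none with RNase T1. The RNase T1 1/1 coding clusters lay in exons 6, 9 and 11, with 5 to 10 reads each, and of these the site in exon 6 and one of those in exon 9 were also seen in RNase I 0.05/0.05.

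APC, on chromosome 5, was bound in exon 16 alone, its last exon, which holds most of its coding sequence. Reads there were 116 in 14 clusters in RNase I 0.05/0.05, 21 in 4 in RNase I 0.1/0.025, 5 in 1 in RNase I 0.05/0.025, 100 in 11 in RNase T1 1/1 and 6 in 1 in RNase T1 0.25/0.25. Coding reads made up 88.8%, 100%, 100%, 95% and 100%. By any annotated isoform the assignment reverses, with 100% of APC reads in a 3′UTR in every library. Its site of 4 libraries, at -2162 to -2071 nt from the end of the stop codon, had 9.31, 6.22, 17.3 and 32.9 CPM and no cluster in RNase I 0.05/0.025.

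LRP6, on chromosome 12, had 129 reads in 15 clusters, 28 in 3, 30 in 3, 83 in 9 and 5 in 1. The exons 22 and 23, its last pair, held all of them except 10 reads in exons 4 and 6 in RNase I 0.05/0.05. Its 3′UTR site 3587 to 3727 nt after the stop codon had 11.9, 13.7, 19.4 and 27.4 CPM in all libraries but RNase T1 1/1, which had none there. A site in exon 22 had 16, 7, 5 and 5 reads in the 3 RNase I libraries and RNase T1 1/1. In RNase T1 1/1 the canonical 3′UTR held 88.0% of the reads, against 62.8%, 39.3% and 43.3% with RNase I, the last 2 on 28 and 30 reads. This gap depends on the isoform, since the share by any isoform was 94.0% in RNase T1 1/1 and 92.2%, 100% and 83.3% with RNase I.

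Conversion was of the same order over all genes. Over all member clusters there were 0.647, 0.666, 0.641, 0.525 and 0.603 conversion events per read, against 0.633, 0.644, 0.600, 0.511 and 0.547 over all clusters of the libraries. CTNNB1 had 0.647 (0.566 to 0.736), 0.721, 0.660, 0.381 (0.261 to 0.538) and 0.600 events per read, so that RNase T1 1/1 lay below RNase I 0.05/0.05 without overlap of the intervals. GSK3B had 0.636 (0.589 to 0.686), 0.686, 0.639, 0.457 (0.406 to 0.514) and 0.521, with the same gap between the electroeluted libraries. TCF7L2 fell from 0.665 (0.630 to 0.701) to 0.549 (0.499 to 0.602) and CSNK1A1 from 0.632 (0.588 to 0.678) to 0.518 (0.457 to 0.585) between these libraries. APC and LRP6 did not share the pattern: 0.672 and 0.770 for APC and 0.589 and 0.687 for LRP6, in RNase I 0.05/0.05 and RNase T1 1/1, with overlapping intervals.

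**Figure D4:**
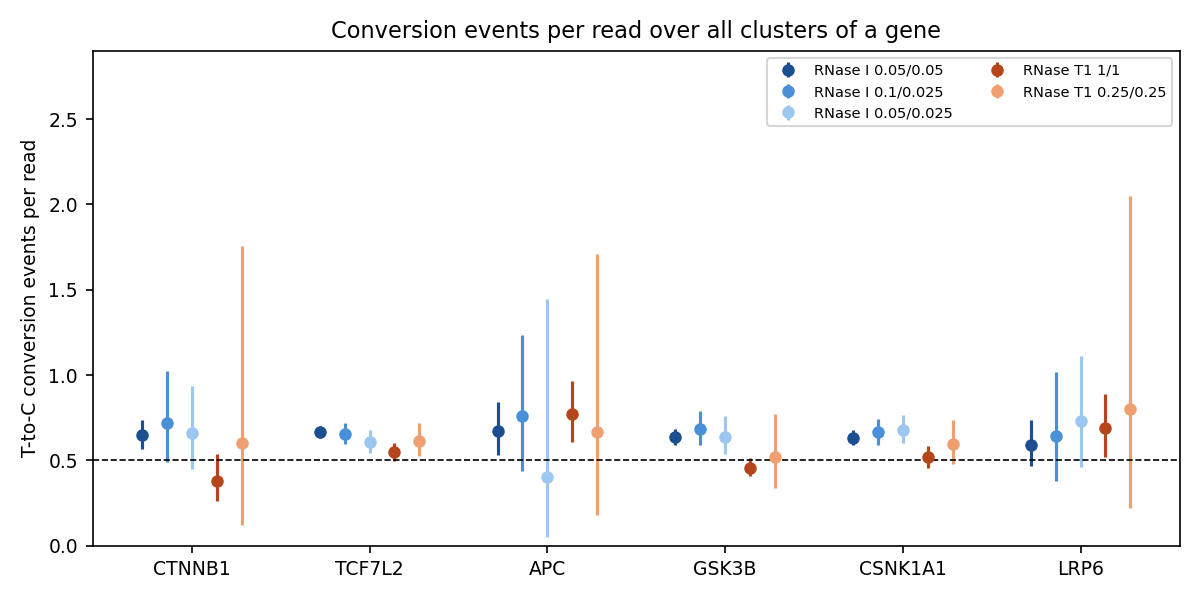
T-to-C conversion events per read over all clusters of a gene, 1 point per IGF2BP3 library with 95% Poisson intervals of the event count, and the threshold of 0.5 that a target cluster must pass as a dashed line. RNase T1 1/1 lies lowest for CTNNB1, TCF7L2, GSK3B and CSNK1A1 and not for APC and LRP6.

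Between libraries, 1 to 4 of the 6 compared members differed by over 2-fold, CTNNB1 and APC in 3 pairs each; with 3′UTR clusters only, CTNNB1 passed 2-fold in none. Ratios of cluster CPM are given with exact intervals of counting error, a change is named past 2-fold, and the comparison covers protein-coding genes with at least 20 reads in either library and 1 in both, among them 6 members in each pair. RNase I 0.05/0.05 against RNase T1 1/1 compares the enzymes, both extracted from the gel by electroelution. CTNNB1 passed 2-fold, at 2.06 times higher with RNase I (1.62 to 2.65), where 20.2% of genes were over 2-fold higher and 15% over 2-fold lower. TCF7L2 was 1.23 times (1.13 to 1.33), CSNK1A1 1.22 times (1.097 to 1.35), GSK3B 0.832 times (0.753 to 0.920), LRP6 0.761 times (0.573 to 1.02) and APC 0.568 times (0.431 to 0.75002) as high with RNase I. The call of CTNNB1 was lost with exonic reads as the denominator and with 3′UTR clusters only.

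RNase I 0.05/0.05 against 0.05/0.025 changes the dose on beads, and also the gel extraction, crushed in the second, so that the 2 cannot be told apart. CTNNB1 was 2.14 times (1.57 to 2.96) and APC 6.59 times (2.74 to 20.7, on 116 and 5 reads) as high in RNase I 0.05/0.05, where 21.7% of genes were over 2-fold higher and 4.28% over 2-fold lower. With 3′UTR clusters only, on 208 and 32 reads, CTNNB1 fell under 2-fold. GSK3B was 1.44 times (1.24 to 1.68), LRP6 1.22 times (0.815 to 1.88), TCF7L2 1.07 times (0.969 to 1.17) and CSNK1A1 0.872 times (0.779 to 0.978) as high.

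RNase I 0.1/0.025 against 0.05/0.025 changes the dose in the lysate, with the same extraction. The methods text gives another in-lysate dose for the first of these than the label, which is followed here. APC alone passed 2-fold, at 3.51 times (1.29 to 11.9, on 21 and 5 reads), where 8.62% of genes were over 2-fold higher and 4.16% over 2-fold lower. The other 5 ranged from 0.764 times (CTNNB1, 0.493 to 1.18) to 1.14 times (GSK3B, 0.946 to 1.36), each with an interval that holds 1.

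RNase T1 1/1 against 0.25/0.25 changes the dose together with the extraction, and the 2 cannot be told apart. GSK3B was 2.04 times (1.52 to 2.80), CTNNB1 2.65 times (1.09 to 8.37), APC 2.63 times (1.17 to 7.33) and LRP6 2.62 times (1.08 to 8.27) as high at the higher dose, and the last 3 rest on 5 or 6 reads at the lower. CTNNB1 fell under 2-fold with 3′UTR clusters only, on 54 and 5 reads. Of all genes, 23% were over 2-fold higher and 13.4% over 2-fold lower. TCF7L2 and CSNK1A1 lay just inside 2-fold in the other direction, at 0.510 times (0.442 to 0.590) and 0.545 times (0.452 to 0.661). A gene without a cluster in the shallow library enters none of these ratios.

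**Figure D5:**
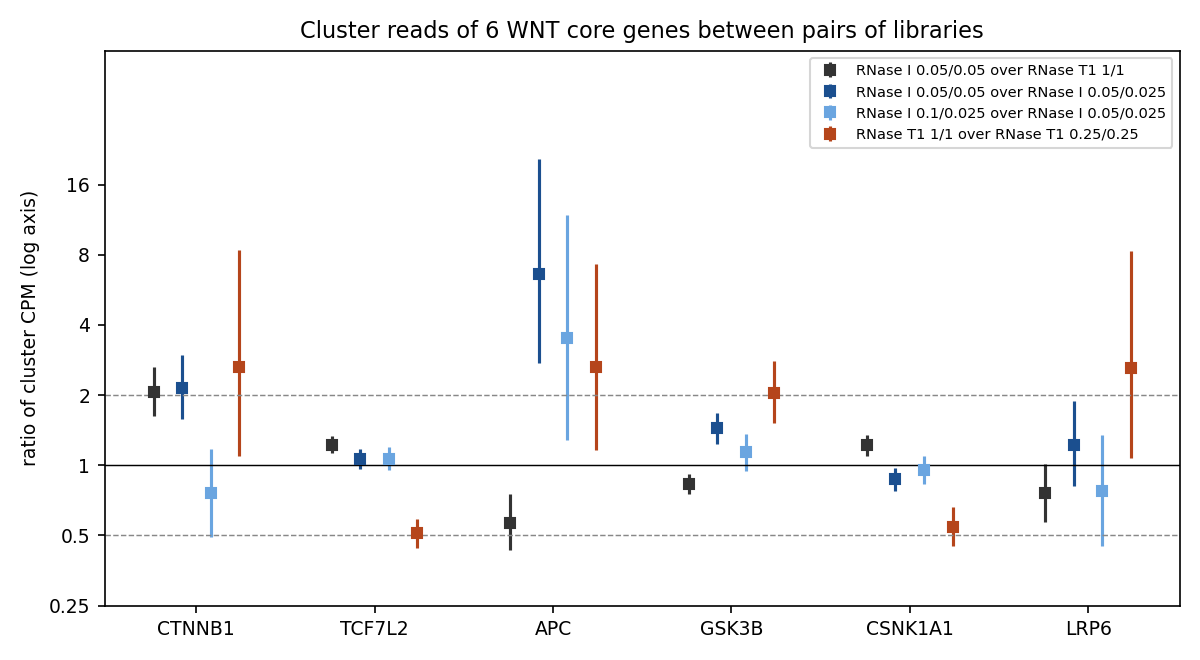
Ratios of cluster CPM between 4 pairs of libraries for 6 genes on a log axis, with exact 95% intervals of counting error, a solid line at 1 and dashed lines at 0.5 and 2. TCF7L2, CSNK1A1 and GSK3B stay within 2-fold in the 3 comparisons that start from an RNase I library, and the widest intervals belong to APC, CTNNB1 and LRP6 where a library had 5 or 6 reads.

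Shares of member clusters that hold a searched tetramer lay on either side of those of the library. CATT (CAUU in the RNA) stood in 41.6% of member clusters in RNase I 0.05/0.05, 42.0% in RNase I 0.1/0.025, 35.3% in RNase I 0.05/0.025, 40.4% in RNase T1 1/1 and 51.4% in RNase T1 0.25/0.25, and in 35.0% to 40.9% of all exonic clusters. CAGT stood in 28.9%, 34.6% and 35.3% of member clusters with RNase I and 13.2% and 14.3% with RNase T1. In all exonic clusters CAGT stood in 34.3%, 34.7% and 33.7% with RNase I and 11.7% and 18.6% with RNase T1. CATA stood in 20.8%, 17.3%, 13.2%, 16.7% and 17.1% of member clusters, below the 22.9%, 23.9%, 22.9%, 20.8% and 23.1% of all exonic clusters. TATC stood in 27.5%, 25.9% and 29.4% of member clusters with RNase I against 20.5%, 20.7% and 20.9% of all exonic clusters, and in 17.5% and 20% with RNase T1 against 18.3% and 19.7%. TTAC stood in 27.5%, 25.9%, 26.5%, 15.8% and 28.6% of member clusters, against 25.5%, 26.4%, 26.0%, 23.8% and 26.0% of all. No test was run on these shares, and the smallest library had 35 member clusters. GGGG, taken for comparison, stood in 8.72%, 8.64%, 14.7%, 5.26% and 8.57% of member clusters. In all exonic clusters it stood in 12.5%, 9.65%, 9.07%, 5.16% and 4.07%. Cluster lengths differ between enzymes, so these shares are not comparable between RNase I and RNase T1; per kb of cluster, CATT was counted 7.79, 9.04 and 8.43 times with RNase I and 13.2 and 14.03 times with RNase T1 in member clusters, and 7.49, 8.45, 8.30, 10.96 and 11.4 times in all exonic clusters.

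Of 95 other WNT genes, 52 had a cluster in at least 1 IGF2BP3 library and 22 were called targets in all 5. Those called were 31 of 50 with a cluster in RNase I 0.05/0.05 (62% against 50.1% of all genes), 32 of 38 in RNase I 0.1/0.025 (84.2% against 66.5%), 29 of 38 in RNase I 0.05/0.025 (76.3% against 72.6%), 30 of 47 in RNase T1 1/1 (63.8% against 52.2%) and 25 of 30 in RNase T1 0.25/0.25 (83.3% against 82%). By role, clusters were found on 2 of 18 ligands, both genes of ligand secretion, 9 of 14 receptors, 4 of 14 genes of receptor turnover and secreted inhibition, all 3 dishevelled transducers, 16 of 20 paralogs or partners of the destruction complex, 8 of 13 nuclear partners, all 4 junction partners and 4 of 7 target genes. Of those with a cluster, the genes called in any library were, in the same order of roles, 1 of 2, 0 of 2, 3 of 9, 4 of 4, 1 of 3, 14 of 16, 7 of 8, 4 of 4 and 4 of 4. The share of all protein-coding genes with a cluster or a call in any library is not given here. Beside 21.2% of all protein-coding genes with a cluster, the genes called in all 5 libraries were 22 of the 52 with a cluster, among them 9 of 16 destruction complex paralogs or partners, 4 of 4 target genes, 3 of 8 nuclear partners and 1 of 9 receptors. The list was chosen with results of these data known, and no difference between roles was tested.

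The WNT genes with the highest mean CPM per kb among those called in all 5 libraries were CCND1 (cyclin D1, a beta-catenin target; mean 662), CD44 (a cell surface hyaluronan receptor; 307), TCF7L2 (225), MYC (134), DKK1 (a secreted inhibitor that binds LRP6; 128), CSNK1A1 (109) and WNT16 (91.9). They were followed by PYGO2 (a nuclear co-activator; 63.9), DVL3 (a dishevelled transducer; 63.7), CSNK1G3 (63.3), GSK3A (51.8), GSK3B (49.3), BCL9L (a nuclear adaptor of beta-catenin; 47.0), CSNK1G1 (46.2) and FBXW11 (a ubiquitin ligase subunit that receives beta-catenin; 43.5). CTNNB1 stood lower, with a mean of 20.4. DKK1 ranged widely, at 200, 47.6, 59.5, 235 and 97.2 CPM per kb in the order of libraries above. MYC had 203, 89.6, 149, 83.4 and 147 CPM per kb.

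Paralogs of the members were bound to differing extents. GSK3A was called in all 5 libraries, at 44.9 to 60.0 CPM per kb, beside GSK3B at 34.0 to 69.3. CSNK1D was also called in all 5, CSNK1E in 3, and CSNK1A1L in 1. LRP5 had 14 reads in RNase I 0.05/0.05 and no cluster elsewhere, and APC2 had none, as had LEF1. TCF7 and TCF7L1 had clusters in 4 libraries each and were called in 2 and 1, at no more than 10.3 and 11.02 CPM per kb, against 172 to 336 for TCF7L2. JUP, the junctional relative of beta-catenin, was called in 4, with 71.0, 19.9, 24.2, 27.6 and 15.6 CPM per kb beside 40.9, 14.6, 19.1, 19.8 and 7.49 for CTNNB1.

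By Euclidean distance of log2 CPM per kb over the 5 libraries, among 752 protein-coding genes with at least 50 reads in each (a minimum that CTNNB1 itself missed in 3 libraries, with 43, 47 and 5 reads, so that the genes compared are more deeply read than CTNNB1), the genes nearest to CTNNB1 were SMAD2 (distance 1.62), KMT2A (1.66) and MRPL42 (1.99). SMAD2 had 16.1, 10.9, 11.9, 22.1 and 9.50 CPM per kb. KMT2A had 23.4, 17.8, 14.7, 23.1 and 19.2. In the 3 libraries where CTNNB1 had fewer than 50 reads, a compared gene could equal its CPM per kb only with a longer mRNA. SMAD2, for example, had 1315 reads in RNase I 0.05/0.05, against 354 for CTNNB1. The read minimum thus shapes which genes come out nearest. This is likeness of level and order over 5 single libraries and nothing more.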

How the data were processed

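IR-PAR-CLIP libraries of HCT116 cells were analysed, 1 per condition, grouped by the labels. Per the labels and methods, the authors demultiplexed with bcl2fastq 2.20.0.422, handled molecular identifiers with UMI-tools 1.1.1, trimmed with Trimmomatic 0.30, aligned to GRCh38 with Bowtie 0.12.7 and called clusters with PARalyzer, whose settings file, in the study's supplement, was not used here. The deposited tables give per cluster the count of reads and of conversion events, and a mode score, a fraction from the deposited files that was not used. From these, reads were assigned to GENCODE release 44 exons on the same strand, scaled to 1000000 cluster reads (CPM), and given exact Poisson, Clopper-Pearson or, for shares of reads, Wilson intervals at 95%, which cover counting error only. Libraries held 182448 to 2362467 cluster reads (IgG 324). No test was run, with 1 library per condition and dose and extraction mixed within each enzyme. The scripts ran under scipy 1.17.1, pandas 2.3.3, numpy 2.4.6, matplotlib 3.10.9 and pysam 0.24.0 in Python 3.11.15, and the code was tested on simulated data. The members and gene lists were chosen with earlier results of these data known. Members were all named, other WNT genes only if called in all 5 IGF2BP3 libraries (up to 15 by mean CPM per kb) or a member's paralog, and the 3 genes of nearest profile to CTNNB1. Alternatives covered read and conversion thresholds, the scaling, isoforms, feature order, length, site merging, motif window and fold. Of the stretches that met the rule for printing, 1 is not reported here.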

Additional observations from a re-analysis of the deposited data

Results flagged for a closer look

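Clusters outside exons were not part of any comparison above, and the IgG library had none at these genes. On the strand opposite APC, in an intron, clusters held 15 reads with 8 conversion events in RNase I 0.05/0.05, and 5 reads each in RNase I 0.1/0.025 and RNase I 0.05/0.025, with 5 and 3 events. They lie between chr5:112776416 and 112777480. In introns of TCF7L2, 3 clusters of RNase I 0.05/0.05 held 20 reads with 12 events. On the strand opposite CTNNB1, 1 cluster of RNase T1 1/1 held 11 reads with 2 events. The IgG library is too shallow, at 324 reads, to set a background for any of them.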

How the results depend on the processing

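No paired analysis was possible because each condition has 1 library and no replicate. With at least 20 reads per cluster, 3, 3 and 2 members were called in RNase I 0.1/0.025, RNase I 0.05/0.025 and RNase T1 0.25/0.25. That setting gave 5 in RNase I 0.05/0.05, with APC gained, and 4 in RNase T1 1/1. With exonic reads as the denominator, 5 were likewise called in RNase I 0.05/0.05. With conversion events over all T positions read above 0.5, 0 were called in any library. With clusters above 10 CPM only, 60 merged sites remained. In the order of libraries above, 3′UTR shares were 69.98%, 73.0%, 76.4%, 74.3% and 71.4% with coding sequence ranked first and 71.5%, 73.4%, 76.4%, 75.3% and 71.4% on canonical transcripts. In the 25 nt around a cluster's mode, CAUU stood in 9.40%, 8.64%, 10.3%, 18.4% and 22.9% and CAGU in 6.71%, 7.41%, 2.94%, 4.39% and 5.71% of clusters; the mode lies at an end of 55.5% to 62.3% of all clusters of the IGF2BP3 libraries, so this window is often cut short. Members over 2-fold higher between enzymes numbered 0 with exonic reads as denominator, 0 at 3-fold and 0 with 3′UTR clusters only, and 1 was lower at 1.5-fold. For the on-beads dose 1 was higher at 3-fold and 1 with 3′UTR clusters only. For the RNase T1 dose 0 were higher at 3-fold, 2 were lower at 1.5-fold and 1 was lower with 3′UTR clusters only. Without clusters shared between genes, 5 of 31 read counts moved, all of CSNK1A1. With the union of exons as length, 22 of 31 values of CPM per kb moved. Depth limits APC, LRP6 and CTNNB1 in RNase T1 0.25/0.25, where each rests on 5 or 6 reads.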
